A study of Mus musculus with 8 samples.

Results

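Rab GTPases are small membrane-bound proteins that act as switches, and each member marks the surface of particular vesicles or organelles. The Rab genes described here are those listed under a mouse Rab symbol of the form Rab plus a number, with an optional letter, in the deposited gene tables of both microRNA comparisons. They number 51 of the 13130 genes listed in both tables, which hold 13434 genes for the sponge comparison and 13465 for the knockout comparison. Proteins that only bind Rabs, such as Rab3gap1 and Rab11fip1, are not members and enter as pathway genes.

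In its GTP-bound form a Rab recruits effectors that tether, move or fuse a vesicle. Exchange factors load the GTP, GTPase-activating proteins speed its hydrolysis, and GDP dissociation inhibitors carry the lipid-tailed protein between membranes through the cytosol. In neurons the Rab3 and Rab27 proteins sit on synaptic vesicles and dense-core granules, the carriers that release transmitters and peptides such as those cut from POMC.

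Arcuate nucleus tissue, the hypothalamic region that holds the POMC and AgRP neurons, was taken from C57BL/6 mice aged 4 months and sequenced as poly(A)-selected RNA in 4 groups of 2 libraries, each library made from 2 mice. The groups were females of genotype Pomc-Cre;miR-7-sponge (replicates 1 and 2), their wild type female littermates (replicates 2 and 4), males of genotype Pomc-Cre;miR-17-92flox/flox (replicates 1 and 2) and their wild type male littermates (replicates 1 and 2). A sponge is a transcript that binds a microRNA and keeps it from its targets, and the floxed allele removes the miR-17-92 cluster where Cre is active. Pomc-Cre acts in cells that express Pomc, whereas the libraries hold whole arcuate tissue, so fewer cells of a type and less RNA per cell cannot be told apart. Every female belonged to the sponge cohort and every male to the knockout cohort, so sex and cohort cannot be told apart either. Neither manipulation was checked, since the sponge RNA and the floxed cluster were not analysed here.

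The microRNAs at issue are shown with their seeds (bases 2 to 8) in capitals, because the seed sets which messenger RNAs a microRNA can pair with. The mature mouse sequences are those of RefSeq on GRCm38.p6, written 5′ to 3′. miR-7a and miR-7b share a seed, as do miR-17 with miR-20a and miR-19a with miR-19b.
mmu-miR-7a-5p: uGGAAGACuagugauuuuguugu
mmu-miR-7b-5p: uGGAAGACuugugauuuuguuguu
mmu-miR-17-5p: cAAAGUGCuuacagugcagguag
mmu-miR-20a-5p: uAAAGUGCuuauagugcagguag
mmu-miR-18a-5p: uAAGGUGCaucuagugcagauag
mmu-miR-19a-3p: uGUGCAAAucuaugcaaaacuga
mmu-miR-19b-3p: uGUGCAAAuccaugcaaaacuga
mmu-miR-92a-3p: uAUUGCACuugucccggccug

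A stretch complementary to a seed was found in the 3′ UTR of 26 of the 51 Rab genes for the miR-17-92 cluster and of 12 of the 51 for miR-7. The 3′ UTR of each gene's highest listed transcript was searched on the transcript strand, in GENCODE M21 on GRCm38. The letters searched were GTCTTCC for miR-7, GCACTTT for miR-17 and miR-20a, GCACCTT for miR-18a, TTTGCAC for miR-19 and GTGCAAT for miR-92a, and a match followed by A was counted as an 8mer. TTTGCAC ends in the letters that begin GCACTTT and GCACCTT, so these matches can overlap, as they do in Rab5b. Matches are described by their letters alone and are not shown to be sites. The following stretches are shown because they are the 8mer matches of miR-17 and miR-20a in Rab genes, with the other 8mers of Rab33b and Rab8b, and because Rab3c and Rab6b, which carry a miR-7 match, are described at length below. Each is written 5′ to 3′ on the transcript strand, with the matched letters in capitals.
Rab33b, miR-17 and miR-20a, chr3:51495573-51495602, plus strand: ccaaggcgcttgggcttataacGCACTTTA
Rab33b, miR-19, chr3:51494563-51494592, plus strand: acttgtagtttgagtttaaaacTTTGCACA
Rab36, miR-17 and miR-20a, chr10:75054435-75054464, plus strand: ctgttgttagctttcccctgtgGCACTTTA
Rab5b, miR-17 and miR-20a, chr10:128678586-128678615, minus strand: agacaccatgcccctgcagtttGCACTTTA
Rab8b, miR-17 and miR-20a, chr9:66847379-66847408, minus strand: gtaatcttagactcttaactgaGCACTTTA
Rab8b, miR-17 and miR-20a, chr9:66845117-66845146, minus strand: cagtattagtggttcagtggctGCACTTTA
Rab8b, miR-19, chr9:66847436-66847465, minus strand: gtcctggaagctgctgtctttcTTTGCACA
Rab8b, miR-92a, chr9:66844609-66844638, minus strand: ccatccattaatgaatttagttGTGCAATA
Rab3c, miR-7, chr13:110058890-110058919, minus strand: agatgttcaaaaactacacatttGTCTTCC
Rab6b, miR-7, chr9:103184731-103184760, plus strand: tactccatggctagtacctaaggGTCTTCC

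Matches were more common in Rab genes than in all genes, and Rab 3′ UTRs were longer. A match of any seed of the cluster was present in 50.98% of the Rab genes, against 31.459% of 13017 genes searched. The miR-7 match was present in 23.5% of the Rab genes and 12.3% of all genes, but 0 of 51 Rab genes held a miR-7 8mer. The miR-17 and miR-20a match was present in 21.6% and 13.6%, the miR-19 match in 29.4% and 12.4%, the miR-92a match in 13.7% and 7.15%, and the miR-18a match in 11.8% and 8.37%. The median 3′ UTR was 1975 bases in Rab genes and 1017 in all genes. Per kilobase of 3′ UTR the numbers of matches in Rab genes and in all genes were 0.115 and 0.0954 for miR-7, 0.150 and 0.106 for miR-17 and miR-20a, 0.141 and 0.0958 for miR-19, 0.0882 and 0.0524 for miR-92a, and 0.0617 in both for miR-18a.

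The values are FPKM, in which the fragments of a gene are divided by its length and by the library total. Levels may be compared between genes only roughly, since gene and transcript values can differ widely. Rab14 had a mean of 11.1 as a gene, whereas its transcript Rab14-001 had a mean of 43.7. Ranks below are by gene FPKM. Read totals were not analysed here and depth is unknown. Listed FPKM summed to between 141356 and 152351 per library. Markers of arcuate neurons were present in all 8 libraries, with Agrp at 14.6 to 28.3 and Pomc at 12.4 to 90.4. Other tissue was also present in unequal amounts. The 3 listed pituitary markers summed to between 5.23 and 336 per library, with the highest sum in knockout replicate 1, and the choroid plexus marker Ttr was at 510 in wild type female replicate 2, against 3.47 to 35.4 in the other libraries. Their part in the values of any Rab gene was not tested.

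Summed over the 51 genes, Rab FPKM was between 684 and 783 per library, which was 0.462% to 0.534% of all listed FPKM. The mean over the 8 libraries was at least 10 for 24 genes and under 1 for 3, and 1 gene, Rab39b, was listed at 0 in a library. The 12 genes of highest mean level held 59.5% of the Rab FPKM.

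**Figure D1:**
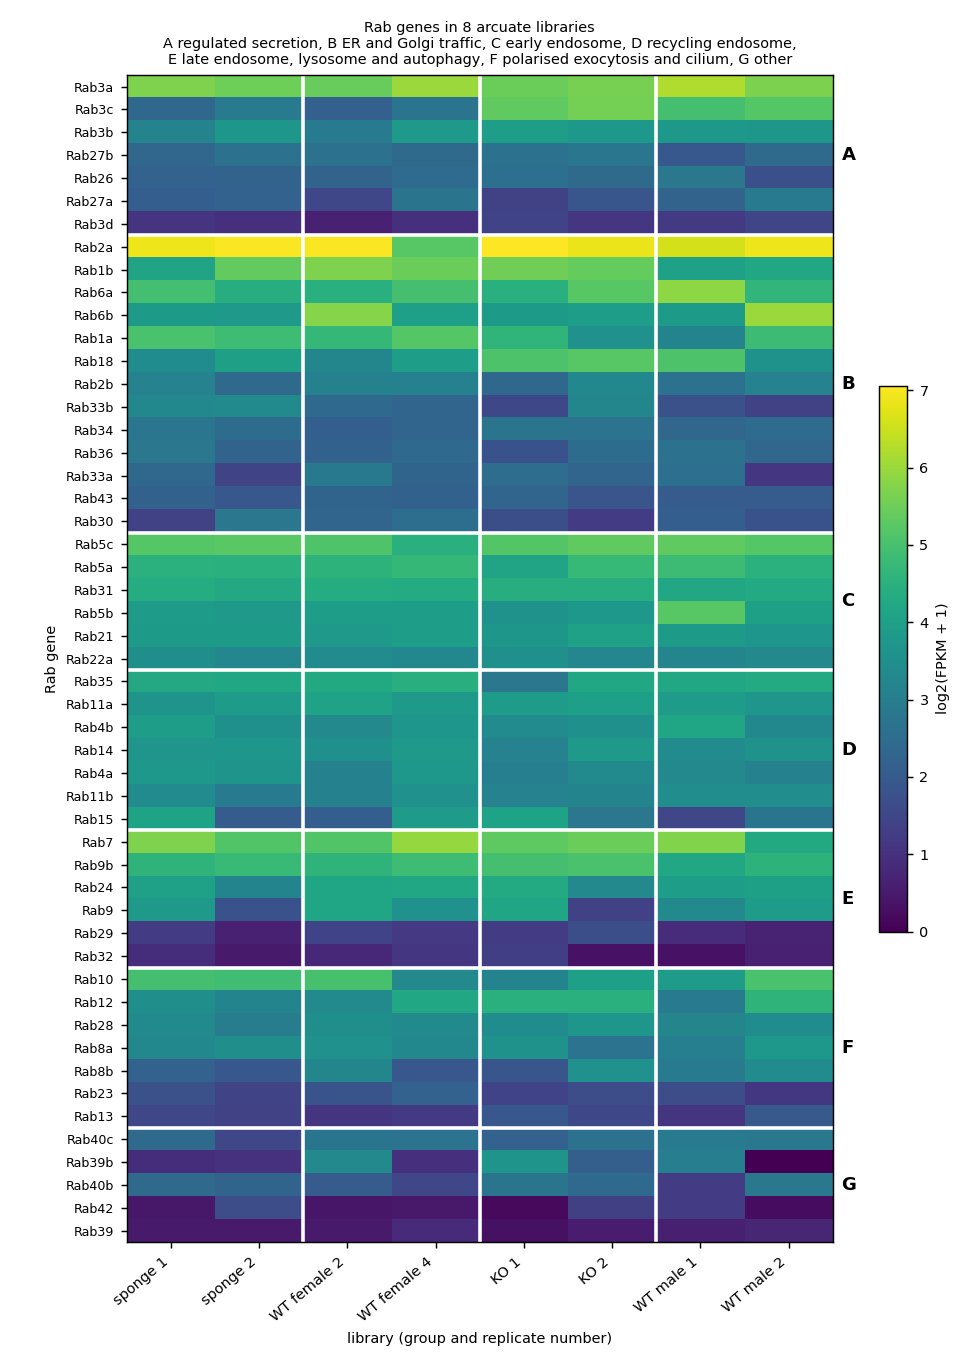
FPKM of the 51 Rab genes (rows, grouped by role and ordered by mean level) in the 8 libraries (columns, by group and replicate number), coloured by log2(FPKM + 1). Rab2a is brightest in 7 libraries, Rab3c separates the 4 female from the 4 male libraries, and Rab6b is bright in wild type female 2 and wild type male 2 only.

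ER and Golgi Rabs made the largest contribution to the family, at 30.3% to 42.4% of Rab FPKM per library over 13 genes. Rab2a, which acts between the ER and the Golgi and in dense-core vesicle formation, had the highest level of all, with a mean of 109 FPKM, or 14.7% of Rab FPKM. It was at 116 and 129 in sponge females, 129 and 36.7 in wild type females, 132 and 114 in knockout males, against 96.2 and 116 in wild type males. Wild type female replicate 4 thus stood alone, below 7 libraries that lay close together. Rab1a and Rab1b, which drive ER-to-Golgi transport, had means of 23.9 and 33.7, and Rab6a and Rab6b, the retrograde Golgi Rabs, of which Rab6b is the brain-enriched one, had means of 30.1 and 24.8. Rab18, found on the ER and on lipid droplets, had a mean of 20.2. The other 7 ER and Golgi Rabs had means between 3.21 for Rab30 and 6.67 for Rab2b.

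Rabs of regulated secretion held 8.40% to 17.2% of Rab FPKM over 7 genes. Rab3a, the main Rab of synaptic vesicles, was the second highest Rab gene, with a mean of 51.8 and a range of 42.0 to 73.6 over the 8 libraries. Rab3c, a close relative on the same vesicles, had a mean of 21.5, but no library lay near that mean. Rab3b had a mean of 11.5 and Rab3d, best known from exocrine granules, 1.19. Rab27b and Rab27a, which dock secretory granules, had means of 4.68 and 3.65, and Rab26, linked to synaptic vesicle turnover, of 4.17.

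Early endosome Rabs held 13.9% to 18.7% of Rab FPKM over 6 genes, among them the most even Rab gene of all. The 3 Rab5 genes, which control fusion of early endosomes, had means of 34.7 for Rab5c, 22.9 for Rab5a and 16.4 for Rab5b. Rab31, which acts between the trans-Golgi network and endosomes, varied by the smallest factor of any Rab gene, from 17.4 to 20.1 FPKM over the 8 libraries. Rab21 and Rab22a, also endosomal, lay between 12 and 15.5 and between 8.26 and 10.8.

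Recycling endosome Rabs held 8.91% to 14.0% over 7 genes, with gene means from 8.23 for Rab15 to 16.9 for Rab35. Rab14, in this group, had a transcript with a mean of 43.7, as given above. Rab11a, the central Rab of recycling endosomes, ranged from 11.6 to 15.7. Late endosome, lysosome and autophagy Rabs held 9.38% to 17.4% over 6 genes. Rab7, which directs late endosomes to lysosomes, was the third highest Rab gene, with a mean of 41.5, and ranged from 18.4 in wild type male replicate 2 to 60.7 in wild type female replicate 4. Rab9b, a late endosome to trans-Golgi Rab encoded on the X chromosome, had a mean of 25.5, above its better known relative Rab9 at 10.6.

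Rabs of polarised exocytosis and the cilium held 6.02% to 11.9% over 7 genes, led by Rab10, which serves exocytosis of membrane transporters, at a mean of 21. Rab10 was at 30.5 and 28.6 in sponge females, 31.3 and 9.0 in wild type females, 8.05 and 15.0 in knockout males, against 13.8 and 31.7 in wild type males, so its spread within groups was as wide as that between them. The 5 remaining genes held 1.35% to 2.77%. The 3 lowest Rab genes were Rab42 at a mean of 0.80, Rab32, which acts on lysosome-related organelles, at 0.725, and Rab39 at 0.503. Neighbours in the order of levels mostly overlapped, for example Rab5c at 21.5 to 39.2 with Rab1b at 15.3 to 50.4, whereas Rab2a lay above Rab3a in every library but wild type female replicate 4.

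Several values carry an annotation limit. In GENCODE M21, exons of 19 of the 51 Rab genes overlap exons of another gene, 14 of them on the opposite strand and 6 on the same strand. The libraries were stranded, but the strand setting of the quantification was not given in the sources used here, so reads of the partners may not be separated. On the opposite strand this touches Rab3a with Mpv17l2, Rab3b with 8030443G20Rik, Rab6a with Mrpl48, Rab24 with Prelid1, Rab5a with Pp2d1, Rab2b with Tox4 and Gm43766, Rab7 with Gm5577 and Rab10 with Rab10os. It also touches Rab11b with Gm17251, Rab22a with Mir6340, Rab26 with AC132367.1, Rab33b with Gm38160, Rab39b with Gm15063 and Rab40c with Gm16278. On the same strand it touches Rab27a with the pseudogene Gm27186, Rab4b with Gm21983 and Mir3101, Rab11a with Gm47308, Rab18 with AC131796.2, Rab26 with Traf7 and Rab43 with Gm45140. The treatment of reads shared between paralogues or with pseudogenes was not given either.

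Loss of the miR-17-92 cluster was examined in knockout against wild type males. With limma 0 of 50 Rab genes tested passed there, and the largest separated difference with a small error was that of Rab1b. Rab39 was too low to be tested. With limma and Benjamini-Hochberg adjustment, 8 of 13155 genes passed in this comparison, which is 0.0608%. At an unadjusted p under 0.05 there were 4 Rab genes, 3 higher and 1 lower, where 5.33% of all genes tested were below that value, 3.22% higher and 2.11% lower. Both knockout libraries lay on one side of both wild type libraries for 18 of the 50 Rab genes, 11 higher and 7 lower, and for 38.5% of all genes, 22.5% higher and 16% lower. With 2 libraries a group an exact permutation test of a single gene cannot give a two-sided p below 0.333. The median log2 fold change was 0.08 over the Rab genes and 0.03 over all genes, and it was above 0 in 29 of the 50 Rab genes and in 53.9% of all genes.

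Rab1b was at 45.6 and 41.0 FPKM in knockout males, against 15.3 and 17.4 in wild type males. The groups lay far apart and the libraries of each group close together, which gave a log2 fold change of 1.35 ± 0.19 (SE, n = 2 each; limma adjusted p = 0.249). Rab9b was at 30.7 and 32.0 in knockout males, against 17.3 and 22.8 in wild type males, a log2 fold change of 0.63 ± 0.21 (limma adjusted p = 0.792). Rab29, a Golgi and lysosome Rab that recruits the kinase LRRK2, was at 1.35 and 2.24 against 0.857 and 0.634, which gave a log2 difference of 0.66 ± 0.24 that was 0.43 without knockout replicate 2 (limma adjusted p = 0.792). These 3 genes were those higher at an unadjusted p under 0.05.

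Rab27a was at 1.63 and 2.74 in the knockout libraries, against 3.72 and 6.73 in their wild type littermates. It was the 1 lower Rab gene at an unadjusted p under 0.05, with a log2 fold change of -0.95 ± 0.34 (limma adjusted p = 0.792). Its relative Rab27b lay on the other side, at 5.38 and 5.87 against 2.82 and 4.40, which gave a log2 difference of 0.54 ± 0.25 (limma adjusted p = 0.792). Neither passed, and single libraries carried much of both values, which were -0.59 for Rab27a without wild type male replicate 2 and 0.29 for Rab27b without wild type male replicate 1.

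The largest of the other separated differences included some that rested on a single library. Rab15, a recycling endosome Rab, was at 16.2 and 5.95 in the knockout libraries, against 1.84 and 5.75 in the wild type males, so that the nearest libraries of the 2 groups differed little, and the log2 fold change of 1.32 was 0.67 without knockout replicate 1 and 0.70 without wild type male replicate 1. Rab5b was at 11.5 and 12.7 against 36.2 and 15.1, where the fold change of -0.91 ± 0.44 on the log2 scale rested on wild type male replicate 1 and was -0.31 without it. Rab35, which returns endosomal cargo to the plasma membrane, was at 5.92 and 17.6 against 17.9 and 18.9, which gave a log2 difference of -0.77 that was -0.06 without knockout replicate 1. Rab30, a Golgi Rab, was at 2.24 and 1.38 against 3.30 and 2.42 with a log2 fold change of -0.47, and Rab40c, part of a ubiquitin ligase, at 3.63 and 5.25 against 6.56 and 6.10 with -0.45. These were -0.25 for Rab30 without knockout replicate 2 and -0.23 for Rab40c without knockout replicate 1. The limma adjusted p was 0.792 for each of these 5 genes.

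By role, 5 of 7 Rabs of regulated secretion were separated between knockout and wild type males, 3 higher (Rab3b, Rab3c and Rab27b) and 2 lower (Rab3a and Rab27a), where 38.5% of all genes tested were separated. Recycling endosome Rabs had 4 of 7 separated, ER and Golgi Rabs 3 of 13, early endosome Rabs 2 of 6, late endosome, lysosome and autophagy Rabs 2 of 6, those of polarised exocytosis and the cilium 1 of 7, and the other Rabs 1 of 4. Of the 6 late endosome, lysosome and autophagy Rabs, 4 had a positive log2 fold change, with a median of 0.37, and 2 of them, Rab9b and Rab29, had an unadjusted p under 0.05, against 5.33% of all genes. Of the 13 ER and Golgi Rabs, 8 were positive, with a median of 0.07, and 53.9% of all genes were positive. Early endosome Rabs had a median of 0.05 over 6 genes, and recycling endosome Rabs a median of -0.06 over 7.

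Some marker genes of other cells also lay apart between these groups. Of all genes tested, 38.5% were separated, 22.5% higher and 16% lower. All 6 markers of meninges and fibroblasts had a positive log2 fold change, 5 of the 6 had both knockout libraries above both wild type libraries, and their FPKM summed to 350 and 239 in knockout males, against 87.3 and 78.7 in wild type males. The endothelial marker Cldn5 was listed at 0 in knockout replicate 1, where Pecam1, Flt1 and Cdh5 were at 1.88, 2.23 and 1.52. Of these 4 endothelial markers, 2 had a positive and 2 a negative log2 fold change, and 0 were separated. The 6 markers of arcuate neurons had 0 positive log2 fold changes, with a median of -0.43. Of these, 2 were separated, both lower in knockout males, and the list summed to 133 and 87.2 FPKM in knockout males, against 185 and 147 in wild type males. The 6 pan-neuronal markers summed to 346 and 395 against 340 and 408. The part of these cells in the Rab values was not tested.

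Withholding of miR-7 was examined in sponge against wild type females. Here 0 of 51 Rab genes passed, and Rab33b had the clearest separation. With limma, 14 of 13157 genes passed (0.106%). Only Rab33b had an unadjusted p under 0.05 among the Rab genes, where 3.76% of all genes did, 1.65% higher and 2.11% lower. The groups were separated for 16 of 51 Rab genes, 5 higher and 11 lower, and for 30.8% of all genes, 12.1% higher and 18.8% lower. The median log2 fold change was -0.08 over the Rab genes and -0.03 over all genes, and it was above 0 in 20 of the 51 Rab genes and in 44% of all genes.

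Rab33b, a Golgi Rab that binds the autophagy protein ATG16L1, was at 8.78 and 9.46 FPKM in sponge females, against 4.35 and 3.93 in wild type females. All values of one group lay above those of the other by a factor larger than the spread within either, with a log2 fold change of 0.98 ± 0.15 (SE, n = 2 each; limma adjusted p = 0.367). Its 3′ UTR held no miR-7 match. In the males, which carry no sponge, Rab33b was at 1.91 and 8.54 in knockout libraries and 2.34 and 1.55 in wild type libraries, so 1 library without the sponge reached the level of the sponge females.

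The other separated Rab genes named here had larger errors relative to their change. Rab40b, a relative of Rab40c, was at 4.38 and 3.78 in sponge females and 3.13 and 1.82 in wild type females, with a log2 fold change of 0.57. Rab34, a Golgi Rab that also acts at the primary cilium, was at 5.80 and 4.64 against 3.33 and 3.9 (0.43 on the log2 scale). Rab5c was at 36.1 and 36.9 against 33.6 and 21.5 (0.43), and Rab13, a Rab of tight junctions, at 1.83 and 1.57 against 1.15 and 1.31 (0.28). Without wild type female replicate 4 the log2 fold change was 0.11 for Rab5c and 0.30 for Rab40b. The limma adjusted p was 1.00 for each of these 4 genes.

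Lower in the sponge females, without passing, were Rab6b, Rab1b, Rab40c, Rab24 and Rab23. Rab6b was at 13.3 and 12.9 against 53.5 and 14.7 in wild type females, a log2 fold change of -1.06 ± 0.64 that was -0.16 without wild type female replicate 2. Rab1b was at 16.5 and 39.8 against 50.4 and 43.6, which gave a log2 difference of -0.84 ± 0.45 that was -0.23 without sponge replicate 1. Rab40c was at 4.45 and 1.86 against 5.73 and 5.43 (-0.74 on the log2 scale), and Rab24, a Rab of autophagy, at 15.4 and 8.04 against 16.6 and 17.4 (-0.57). Rab23, an inhibitor of Hedgehog signalling at the cilium, was at 2.35 and 1.72 against 2.57 and 3.66 (-0.44). Without sponge replicate 2 the log2 fold change was -0.27 for Rab40c and -0.14 for Rab24, and without wild type female replicate 4 it was -0.24 for Rab23. The limma adjusted p was 1.00 for each. All 6 late endosome, lysosome and autophagy Rabs had a negative log2 fold change, with a median of -0.30, where 44% of all genes were positive. Of these 6, 1 was separated and 0 had an unadjusted p under 0.05.

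The 8 oligodendrocyte markers all had a negative log2 fold change in the sponge females, and 6 of the 8 were separated. Of all genes tested, 44% had a positive log2 fold change and 30.8% were separated, 12.1% higher and 18.8% lower. The 8 markers summed to 133 and 119 FPKM in sponge females and 190 and 177 in wild type females. The 6 markers of meninges and fibroblasts summed to 247 FPKM in sponge replicate 1 and 74.4 in sponge replicate 2, against 72.8 and 97.5. Of the 6 microglial markers, 5 had a negative log2 fold change and 2 were separated, both lower. Cx3cr1 was listed at 0 in sponge replicate 2 and in both wild type female libraries. The other markers of that list were not at 0 in any library. The part of these cells in the Rab values was not tested.

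**Figure D2:**
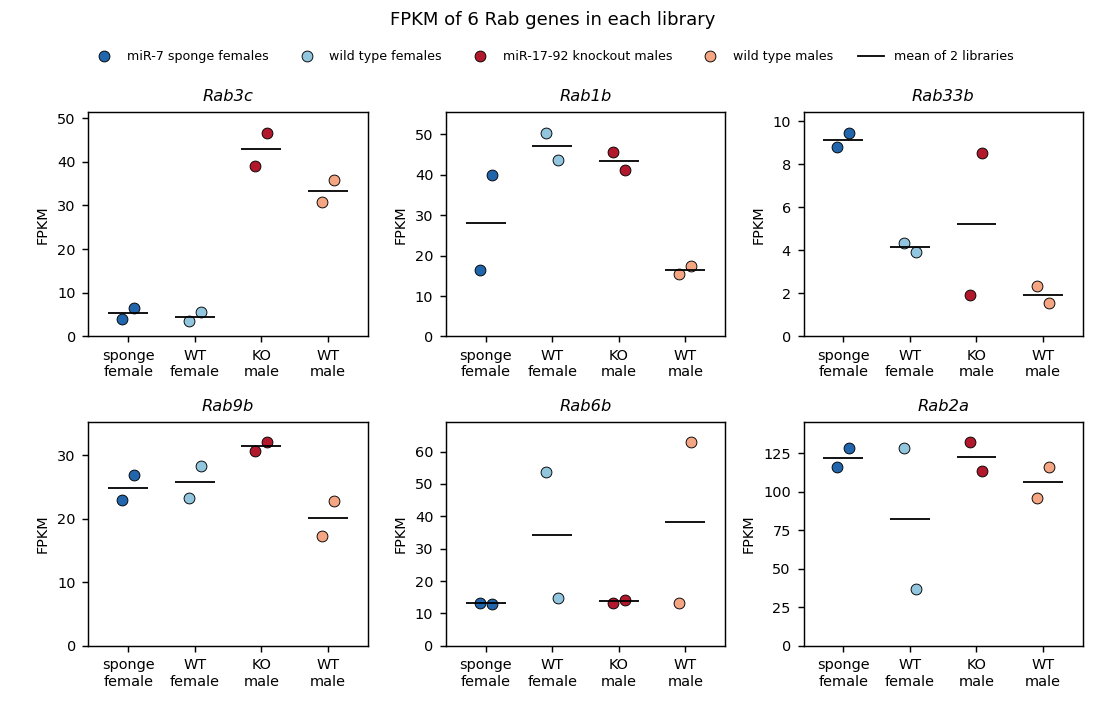
FPKM (vertical axis, from 0) of 6 Rab genes in each library, by group, with points for libraries and lines for the mean of 2. Rab3c is at 3.45 to 6.48 in the females and 30.8 to 46.7 in the males, Rab1b is low in wild type males and sponge replicate 1, Rab33b is at 8.78 and 9.46 in sponge females, and single libraries stand apart for Rab6b and Rab2a.

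A direct test of the difference between the manipulations, knockout effect minus sponge effect, found 0 of 51 Rab genes past the threshold with limma over all 8 libraries, where 2 of 13025 genes passed (0.0154%). At an unadjusted p under 0.05 there were 3 Rab genes, and 4.98% of all genes. Rab1b had the largest of the 3 differences, 2.19 ± 0.53 on the log2 scale (limma adjusted p = 0.773), with a positive effect in knockout males and a negative one in sponge females. Rab29 had 1.02 ± 0.37 and Rab9b 0.68 ± 0.28, each with a limma adjusted p of 0.922.

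Between the wild type females and the wild type males, a comparison of the controls that the study made to look at sex, 0 of 51 Rab genes passed with limma, where 9 of 13114 genes did (0.0686%). Rab3c and Rab1b came closest. At an unadjusted p under 0.05 there were 3 Rab genes, 2 higher and 1 lower, and 4.61% of all genes, 2.47% higher and 2.14% lower. The groups were separated for 17 of 51 Rab genes, 11 higher and 6 lower, and for 34.9% of all genes, 24.1% higher and 10.9% lower. The median log2 fold change was 0.08 over the Rab genes and 0.06 over all genes, and it was above 0 in 28 of the 51 Rab genes and in 59.4% of all genes.

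Rab3c, the synaptic vesicle Rab on chromosome 13 (110054187 to 110280206, minus strand, GRCm38), had the largest difference. It was at 3.45 and 5.56 FPKM in wild type females and 30.8 and 35.9 in wild type males, a log2 fold change of -2.66 ± 0.26 (SE, n = 2 each; limma adjusted p = 0.119). The manipulated groups followed the same division, at 4.08 and 6.48 in sponge females and 39.0 and 46.7 in knockout males. All 4 female libraries thus lay between 3.45 and 6.48 and all 4 male libraries between 30.8 and 46.7, with an empty interval of 2.09 on the log2(FPKM + 1) scale between them.

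A fit of all 4 female against all 4 male libraries, chosen after this division was seen, called Rab3c, with a log2 fold change of -2.74 ± 0.19 (n = 4 each; limma adjusted p = 0.0345). It called 4 of 13025 genes (0.0307%), and Rab3c was the 1 Rab gene among them. The 4 female libraries were separated from the 4 male libraries for 3.32% of all genes (2.15% higher and 1.17% lower) and for 2 of 51 Rab genes, Rab3c and Rab3d, both lower in females. Rab3d was at 0.552 to 1.12 in females and 1.17 to 1.78 in males, a log2 fold change of -0.40 ± 0.14 (limma adjusted p = 0.83).

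Rab3c therefore made up unequal shares of the Rab3 genes. Of the summed FPKM of Rab3a, Rab3b, Rab3c and Rab3d, Rab3c held 6.42% to 10.1% in female libraries and 26.0% to 43.0% in male libraries. Rab3a was at 42.0 and 62.4 in wild type females, against 73.6 and 49.9 in wild type males, and Rab3b at 6.66 and 13.1 against 12.5 and 12.4. Neither was called, and the groups overlapped for both. Pan-neuronal markers summed to 356 and 385 in wild type females and 340 and 408 in wild type males, and the groups overlapped. The 6 markers of arcuate neurons all had a positive log2 fold change in the fit of 4 against 4 libraries, and 0 were called (lowest limma adjusted p = 0.109). In that fit 7446 of 13025 genes were positive, as were 3 of 3 ependymal and 2 of 2 choroid plexus markers. Of 6 microglial markers and of 6 markers of meninges and fibroblasts, 0 were positive, and the other lists were mixed. For 2 of the 6 arcuate markers the libraries divided as they did for Rab3c, with Tac2 at 18.5 to 21.5 FPKM in females, against 5.83 to 9.60 in males, and Kiss1 at 3.24 or more in females, against 2.75 or less in males. Of all genes, 2.15% were separated with females higher. The arcuate list summed to 166 and 185 in wild type females, against 185 and 147 in wild type males. The part of these neurons in the Rab3c values was not tested. The sexes came from different cohorts, and the part of sex in the Rab3c values cannot be told apart from that of the cohort. Rab3c has 1 listed transcript, with the values of the gene, and no exon of another gene overlapped it in GENCODE M21.

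Rab1b was at 50.4 and 43.6 in wild type females, against 15.3 and 17.4 in wild type males, a log2 fold change of 1.46 ± 0.18 (limma adjusted p = 0.217). The wild type males are the same libraries as in the knockout comparison, where Rab1b was also higher in the other group, so these differences are not independent. Sponge replicate 1, at 16.5, had a level like that of the wild type males, and over the 4 female and 4 male libraries the values of Rab1b overlapped, with a log2 fold change of 0.37 ± 0.27 (limma adjusted p = 0.911). Rab33b was at 4.35 and 3.93 in wild type females, against 2.34 and 1.55 in wild type males, a log2 fold change of 0.82 ± 0.21 (limma adjusted p = 0.772).

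Of the remaining separated Rab genes, Rab23 was at 2.57 and 3.66 in wild type females, against 2.18 and 1.23 in wild type males, a log2 fold change of 0.62. Rab29 had a log2 fold change of 0.49, at 1.66 and 1.25 against 0.857 and 0.634, and Rab30 had 0.49, at 3.95 and 4.85 against 3.30 and 2.42. Lower in females were Rab5b at 14.2 and 14.6 against 36.2 and 15.1 (-0.67 on the log2 scale), Rab3d at 0.552 and 0.959 against 1.30 and 1.78 (-0.53) and Rab5c at 33.6 and 21.5 against 39.2 and 35.7 (-0.46). Small separated differences were also found for Rab34 (-0.18) and Rab40c (-0.16). The limma adjusted p of each of these 8 genes was 0.920 or more. Several rested on 1 library. Rab5b had -0.07 without wild type male replicate 1, and Rab5c had -0.15 without wild type female replicate 4. Rab23 had 0.36 and Rab30 had 0.32 without wild type male replicate 2, and Rab34 had -0.09 without wild type female replicate 2. All 6 late endosome, lysosome and autophagy Rabs had a positive log2 fold change, with a median of 0.41, where 59.4% of all genes were positive. Of these Rabs 4 of 6 were separated, as were 3 of 6 early endosome Rabs, 3 of 7 of regulated secretion, 5 of 13 of the ER and Golgi, 1 of 7 of polarised exocytosis and the cilium, 0 of 7 of recycling endosomes and 1 of 5 others, where 34.9% of all genes were separated. The same wild type female libraries enter the sponge comparison, where all 6 late endosome, lysosome and autophagy Rabs were negative. These results are thus not independent. Over the 4 female and 4 male libraries 4 of these 6 Rabs were positive, with a median of 0.07, where 7446 of 13025 genes were positive. There 0 of the 6 were separated, against 3.32% of all genes. The 4 X-linked Rab genes had log2 fold changes of 0.35 for Rab9b, 0.23 for Rab9, 0.70 for Rab33a and 0.64 for Rab39b, and none passed with limma. The wild type groups overlapped for Rab9, Rab33a and Rab39b. Over the 4 female and 4 male libraries the log2 fold changes were 0.01 for Rab9b, 0.13 for Rab9, 0.10 for Rab33a and -0.65 for Rab39b.

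**Figure D3:**
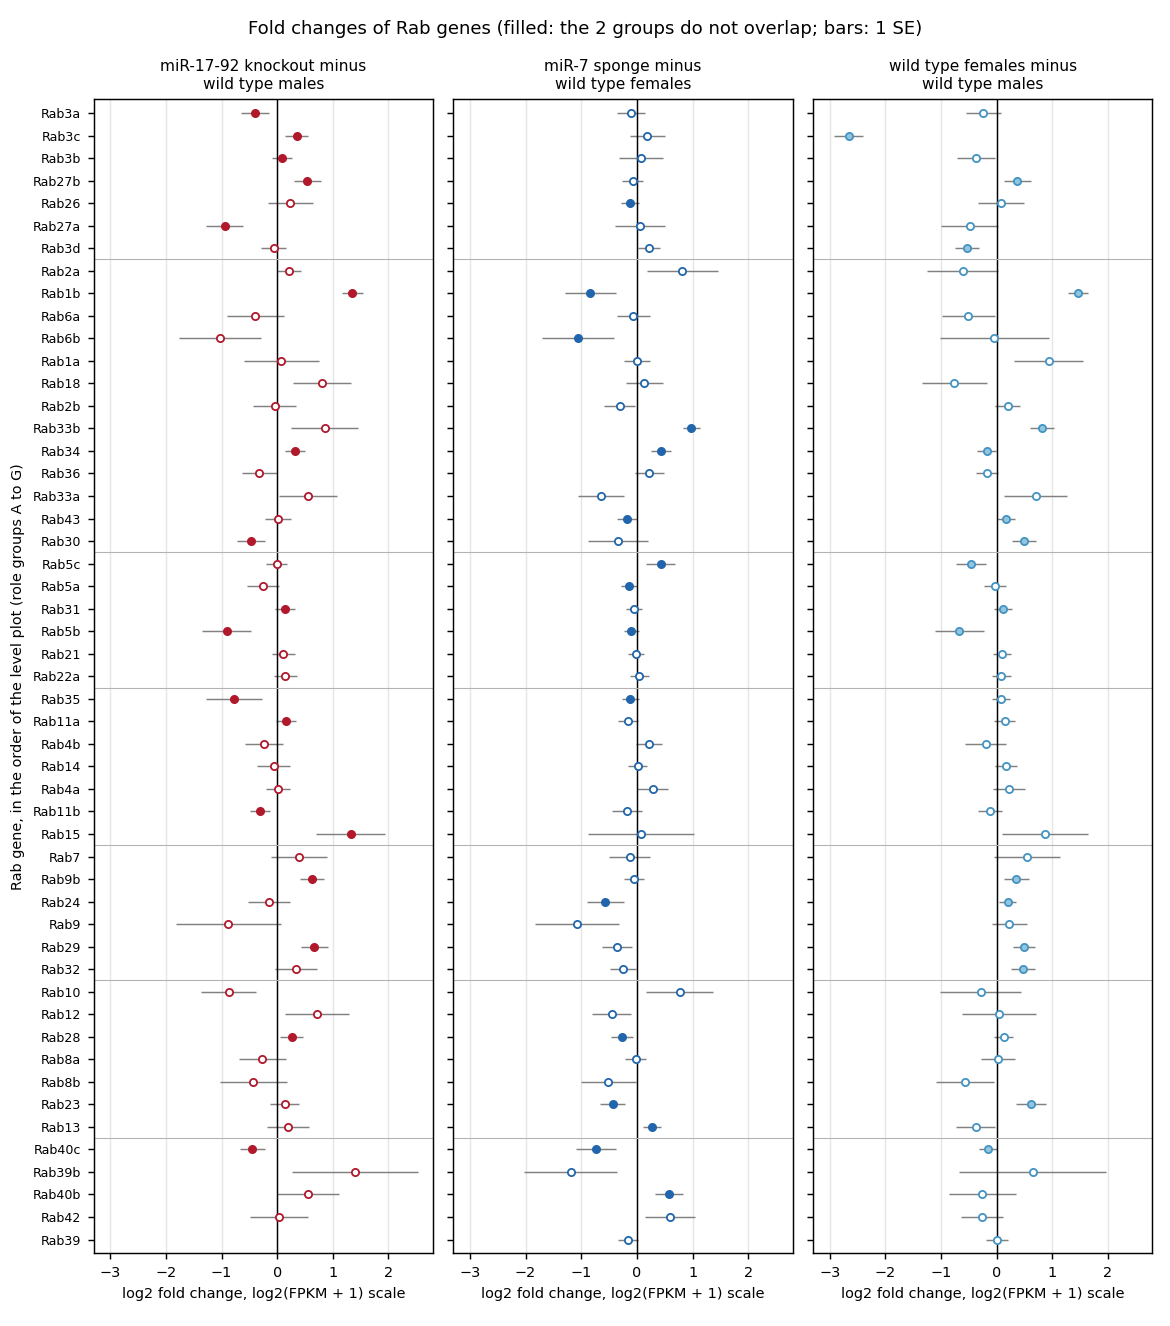
Log2 fold changes of the Rab genes (horizontal axis, log2(FPKM + 1) scale) in 3 comparisons, with bars of 1 SE and filled points where the 2 groups of 2 libraries do not overlap. The wild type male libraries enter the left and right panels and the wild type female libraries the middle and right panels. Rab1b at 1.35 and 1.46, Rab33b at 0.98 and Rab3c at -2.66 lie farthest out relative to their errors, and 0 Rab genes passed in these panels.

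At the transcript level 26 of the 51 genes had at least 2 listed transcripts, 25 had 1, and the most for a gene was 5. A further gene, Rab37, was listed only as a transcript. A gene's FPKM is not the sum of its transcripts' FPKM, since each transcript is scaled to its own length. With limma, 0 of 73 Rab transcripts passed in the knockout, where 2 of 22134 transcripts did (0.00904%). There were 0 of 82 in the sponge and 0 of 76 in the wild type comparison, where 0 of 22370 and 0 of 22079 transcripts passed (0% each). At an unadjusted p under 0.05 there were 1, 6 and 6 Rab transcripts in these comparisons, and 5.83%, 4.52% and 5.77% of all transcripts.

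In the sponge comparison Rab33b-001 and Rab33b-002 had the lowest adjusted p of the Rab transcripts. Lower values were found in the other comparisons. They were those of Rab3c-201 in the wild type comparison (limma adjusted p = 0.349) and of Rab1b-201 there (limma adjusted p = 0.464) and in the knockout (limma adjusted p = 0.511). The transcript Rab33b-001, the one that holds the 3′ UTR matches printed above, was at 8.90 and 9.53 FPKM in sponge females and 1.85 and 1.31 in wild type females, a log2 fold change of 1.99 ± 0.27 (limma adjusted p = 0.548). Rab33b-002 was listed at 0 in each sponge library and was at 3.57 and 5.46 in wild type females (limma adjusted p = 0.594). The gene as a whole thus differed less than Rab33b-001. Among the males, Rab33b-002 was listed at 0 in knockout replicate 2 and in wild type male replicate 2, was at 0.28 in knockout replicate 1 and was at 5.26 in wild type male replicate 1. The share of Rab33b-001 in the summed FPKM of both transcripts was 100% in both sponge libraries, 34.2% and 19.3% in wild type females, 87.2% and 100% in knockout males, and 5.19% and 100% in wild type males. This was the widest range among Rab genes with at least 2 transcripts at a mean FPKM of at least 1.

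**Figure D4:**
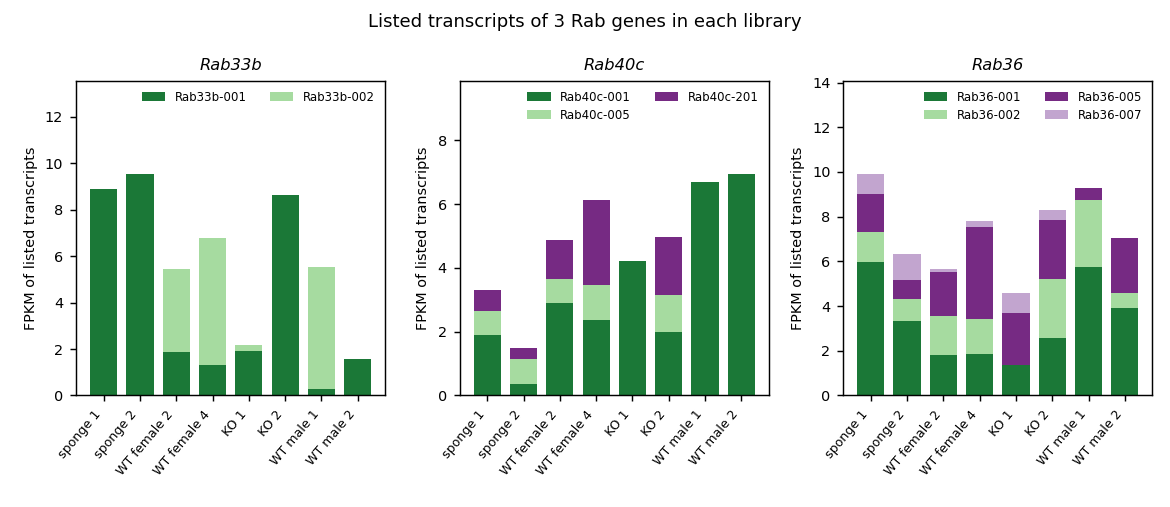
FPKM of the listed transcripts of Rab33b, Rab40c and Rab36 (stacked bars, from 0) in the 8 libraries. Rab33b-002 is listed at 0 in each sponge library, against 3.57 and 5.46 in wild type females, and Rab40c-201 is listed at 0 in each wild type male library but not in the females.

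In the knockout, Rab1b-201 and Rab9b-001 are the listed transcripts of their genes and gave the same fold changes. Rab5c-002, a minor transcript, was at 1.94 and 1.68 in knockout males, against 0.625 and 0.0157 in wild type males, and Rab40c-001 at 4.22 and 2.01 against 6.71 and 6.94. Their log2 fold changes were 1.13 ± 0.43 and -0.98 ± 0.38, each with a limma adjusted p of 0.853, and that of Rab40c-001 was -0.58 without knockout replicate 2.

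In the sponge females, Rab23-001 was at 1.12 and 2.61 against 4.51 and 6.36 in wild type females, with a log2 fold change of -1.21 ± 0.40 (limma adjusted p = 0.982). Rab7-008, a minor transcript, was listed at 0 in each sponge library, against 1.12 and 2.28. In wild type females Rab40c-001 was at 2.89 and 2.36, against 6.71 and 6.94 in wild type males, with a log2 fold change of -1.11 ± 0.27 (limma adjusted p = 0.674). Rab40c-201 was at 1.22 and 2.68 in the wild type female libraries, while each wild type male library listed it at 0. The 2 Rab40c transcripts thus lay in opposite directions while the gene differed by -0.16 on the log2 scale, with no difference past the threshold.

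Shares were taken over the transcripts listed for all 8 libraries. Rab7-002, at 5.63 FPKM in sponge replicate 1, and Rab11a-002, at 1.97 in knockout replicate 2, were thus left out. The shares of Rab7-001 and Rab11a-001 there would be lower with them. Among genes with at least 2 such transcripts at a mean FPKM of 1 or more, the leading share ranged less in higher Rabs. Its range reached 20.0 percentage points for Rab11a-001, against 25.1 for Rab4a-001, the narrowest of the lower genes. Rab7-001 held 95.3% to 100% over the 8 libraries, Rab6a-001 86.1% to 96.1%, Rab11a-001 74.0% to 94.0% and Rab3a-001 56.4% to 73.8%. The paired transcripts of Rab1a and of Rab12 split their gene almost evenly, at 49.0% to 51.6% for Rab1a-201 and 47.3% to 51.1% for Rab12-201. Wider ranges were found for lower genes, with Rab34-003 at 13.4% to 74.7%, Rab30-001 at 19.3% to 68.6%, Rab36-001 at 23.9% to 62.0%, Rab28-001 at 57.0% to 88.7% and Rab4a-001 at 74.9% to 100%. For Rab36-001 the shares were 60.4% and 52.8% in sponge females and 32.2% and 23.9% in wild type females, and 30.01% and 30.9% in knockout males, against 62.0% and 55.4% in wild type males. These groups did not overlap in either pair, and no test was made of shares. Rab36-001 was picked after the shares were seen, and separated shares were not counted over the other genes.

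Many Rab genes had values that jumped between single libraries. Ordering the 8 libraries of each gene by log2(FPKM + 1), the largest gap between neighbours was at least 1 for 11 of the 51 Rab genes, or 21.6%, and for 7.75% of 13025 genes. At a mean FPKM of at least 5 the counts were 10 of 33 Rab genes, or 30.3%, and 9.38% of 6517 genes. The 2 libraries of at least 1 group differed by 1 or more on that scale in 23 of 51 Rab genes, against 18.6% of all genes, and at a mean FPKM of at least 5 in 16 of 33, against 20.2%. The median ratio of the highest to the lowest library was 3.16 in Rab genes and 1.99 in all genes.

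Only 1 of the 11 gaps, that of Rab3c, kept both libraries of every group on the same side. In 3 of the 11 genes a single library stood alone, namely wild type female replicate 4 for Rab2a, knockout replicate 1 for Rab35 and wild type male replicate 1 for Rab5b. Rab6b was at 53.5 in wild type female replicate 2 and 62.9 in wild type male replicate 2, and at 12.9 to 14.7 in the other 6 libraries. Rab9 was at 2.42 in sponge replicate 2 and 1.60 in knockout replicate 2, and at 9.5 to 17.0 elsewhere. Rab1a was at 10.8 in knockout replicate 2 and 8.15 in wild type male replicate 1, and at 23.6 to 35.8 elsewhere.

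Each of these genes divided the libraries in its own way. Rab15 was at 15.9 in sponge replicate 1, 13.8 in wild type female replicate 4 and 16.2 in knockout replicate 1, against 1.84 to 5.95 elsewhere. Rab18 was at 33.1 and 36.4 in the knockout libraries, with 33.2 in wild type male replicate 1, against 8.48 to 15.0 in the other 5 libraries. Rab39b, whose human counterpart is mutated in an X-linked intellectual disability, was at 9.07 in wild type female replicate 2, 11.6 and 3.44 in the knockout libraries and 7.08 in wild type male replicate 1. It was at 0.904 to 0.992 in the 3 other female libraries and listed at 0 in wild type male replicate 2. Exons of Rab18 and Rab39b overlap those of another gene, as given above. The largest gap of a Rab gene was not ordered by its 3′ UTR length, number of exons or transcript length, with Spearman's rho of -0.08, -0.09 and -0.09 over the 51 genes, given as descriptions across genes. Over 12886 genes the rho with the number of exons was -0.47.

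**Figure D5:**
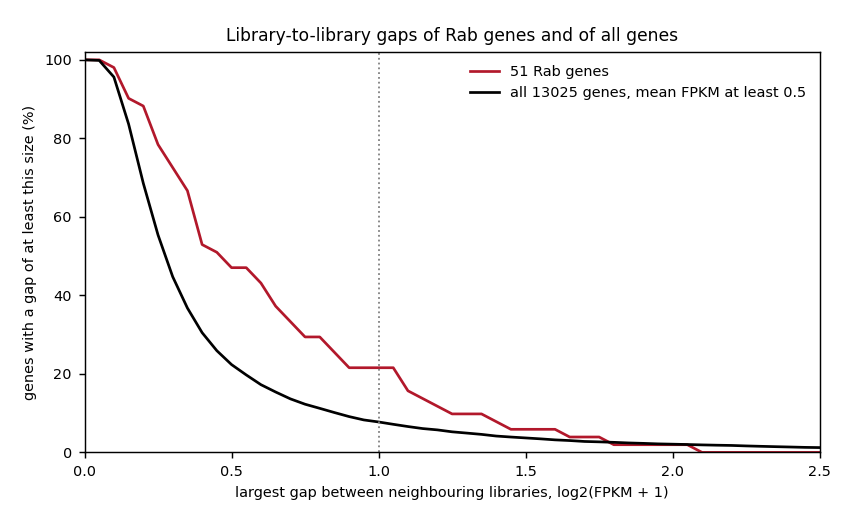
Percentage of genes (vertical axis) whose largest gap between neighbouring libraries, on the log2(FPKM + 1) scale, is at least the value on the horizontal axis, for 51 Rab genes and all 13025 genes. At the dotted line, a gap of 1, the curves stand at 21.6% and 7.75%.

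No Rab gene passed in the knockout or the sponge comparison, so none with a seed match did. In the knockout, the 11 Rab genes with a miR-17 and miR-20a match had a median log2 fold change of -0.31, and the 39 without one a median of 0.11, while 1745 of all genes with a match had a median of 0.04 and the others 0.03. None of the 11 had an unadjusted p under 0.05 with limma, where 90 of the 1745 genes with a match did. A set of 11 genes is too small to read a difference from that count. Those with an 8mer printed above had log2 fold changes of 0.85 ± 0.61 for Rab33b, -0.33 ± 0.31 for Rab36, -0.91 ± 0.44 for Rab5b and -0.43 ± 0.61 for Rab8b. Rab8b, a Rab of exocytosis and the cilium that carries 8mers of 3 seeds of the cluster, was at 2.69 and 10.8 FPKM in knockout males, against 6.44 and 9.59 in wild type males, and the groups overlapped.

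For any seed of the cluster, 26 Rab genes with a match had a median log2 fold change of 0.00 and 24 without had 0.14. Rab1b, with the highest separated fold change in the knockout, held miR-18a matches only, as 7mers. In the sponge females the 12 Rab genes with a miR-7 match had a median of -0.04 and the 39 without had -0.10. Of the 12, 0 had an unadjusted p under 0.05 with limma, where 69 of 1575 of all genes with a match did, and 12 genes are again too few. Of the 12, Rab6b had -1.06, Rab8b -0.51 and Rab5c 0.43, and Rab3c, with a miR-7 match in a 3′ UTR of 7628 bases, had 0.19 ± 0.31.

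Genes that act on or with Rabs were taken from 4 lists of regulators and effectors. GDP dissociation inhibitors and prenylation factors, exchange factors, GTPase-activating proteins and effectors had 0 members called with limma in the knockout (of 13, 37, 38 and 46 tested), in the sponge (of 13, 37, 39 and 47) and in the wild type comparison (of 13, 37, 40 and 46). Their median log2 fold changes were 0.03, -0.05, -0.10 and 0.03 in the knockout, -0.01, -0.04, 0.00 and -0.03 in the sponge, and 0.05, 0.01, 0.01 and 0.08 in the wild type comparison. At an unadjusted p under 0.05 there were 4 of these genes in the knockout, 4 in the sponge and 7 in the wild type comparison, where 5.33%, 3.76% and 4.61% of all genes were below that value.

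Among effectors, Rims3, a small member of the RIM family of active zone proteins, to which the Rab3 effectors Rims1 and Rims2 belong, was at 14.7 and 11.6 FPKM in sponge females and 36.1 and 45.6 in wild type females, a log2 fold change of -1.56 ± 0.21 (limma adjusted p = 0.307). Rab11fip4, which binds Rab11 at recycling endosomes, was at 25.8 and 21.6 in sponge females and 50.3 and 47.4 in wild type females, a log2 fold change of -1.02 ± 0.17 (limma adjusted p = 0.435). In the knockout Rab11fip4 was at 45.9 and 45.5 against 25.0 and 30.7 in wild type males, a log2 fold change of 0.70 ± 0.20 (limma adjusted p = 0.792), and its level in wild type females lay above that in wild type males by 0.80 ± 0.19 (limma adjusted p = 0.701). Rilpl1, which binds Rab8 and Rab10 when they are phosphorylated, was at 4.87 and 4.27 in knockout males against 7.58 and 7.54 in wild type males (-0.62 on the log2 scale), and at 4.14 and 4.60 in wild type females (-0.67).

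Among exchange factors, Rabgef1, which activates Rab5, was at 7.29 and 7.37 in sponge females and 4.69 and 4.51 in wild type females, a log2 fold change of 0.57 ± 0.14 (limma adjusted p = 0.883), and Rab3ip, an activator of Rab8, at 7.95 and 7.92 against 5.38 and 6.09. Madd, which activates Rab3, was at 14.2 and 15.3 in knockout males, against 23.3 and 17.8 in wild type males, and Sbf1 at 16.3 and 16.9 against 25.7 and 20.5. Rgp1, part of the exchange factor of Rab6, was at 3.16 and 3.63 in wild type females, against 5.78 and 5.15 in wild type males, and Rabgef1 was at 4.69 and 4.51 against 6.40 and 7.26. None of these passed with limma, with adjusted p values of 0.792 or more.

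Among GTPase-activating proteins, Usp6nl was at 1.34 and 1.55 in knockout males, against 4.25 and 2.99 in wild type males, a log2 fold change of -0.91 ± 0.23 (limma adjusted p = 0.709), and Tbc1d7 at 4.92 and 6.26 against 7.84 and 9.31. In the sponge females Tbc1d2b was at 2.45 and 3.08 against 4.23 and 4.10 in wild type females, and Tbc1d10a at 5.69 and 5.14 against 7.03 and 7.09. Tbc1d10b was at 5.01 and 3.81 in wild type females, against 12.6 and 9.22 in wild type males, a log2 fold change of -1.13 ± 0.24 (limma adjusted p = 0.584), and Tbc1d25 was at 1.96 and 2.33 against 2.81 and 3.05.

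The list named for inhibitors and prenylation factors also holds other genes, among them Rabif, Yipf4 and Yipf5. In this list Chm, the Rab escort protein gene, was at 5.76 and 5.97 in knockout males, against 2.8 and 4.24 in wild type males, a log2 fold change of 0.62 ± 0.24 (limma adjusted p = 0.792), and its relative Chml was at 1.70 and 1.94 in sponge females and 0.618 and 1.58 in wild type females. Rabif had 1.28 and 8.47 FPKM in knockout males, 0.537 and 8.43 in wild type females and 0 and 0.742 in wild type males, so its differences rest on 1 library in each of the first 2 groups. Yipf4 was at 11.2 and 7.72 in sponge females and 11.4 and 21.3 in wild type females, and Yipf5 at 8.14 and 8.84 in wild type females and 12.6 and 18.2 in wild type males.

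Under the q-values in the authors' deposited tables, 0 of 51 Rab genes had a value under 0.05 in each of the 3 comparisons, with lowest q-values of 0.490 in the knockout, 0.485 in the sponge and 0.468 in the wild type comparison. The authors' deposited table of each comparison gave 3, 1 and 3 Rab genes a p-value under 0.05, and the lowest was that of Rab1b in the knockout and in the wild type comparison and that of Rab33b in the sponge.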

How the data were processed

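Poly(A)-selected, stranded RNA of arcuate nucleus was sequenced in 8 libraries. The tools named are StringTie 1.2.3, HISAT2 2.0.4, cutadapt and FastQC, and the build is mm10/GRCm38, per the submitters' processing notes; per the series' design text the authors computed gene and transcript FPKM with Ballgown. The annotation release and strand setting were not given in the sources used here. The authors deposited FPKM per library for 3 comparisons, with their own p-values and q-values; how these were tested was not given in the sources used here. Depth is unknown, so no count test was possible, and FPKM of low genes are imprecise.

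From the deposited FPKM, log2(FPKM + 1) was fitted over all listed features with a mean FPKM of at least 0.5, using limma 3.58.1 with a mean-variance trend in R 4.3.3 and Benjamini-Hochberg adjustment, at a threshold of 0.05. Fold changes on this scale understate changes of low genes. The difference between manipulations used all 8 libraries. The procedure was tested on simulated data. The labels do not say that the 2 libraries of a group came from separate litters, so p-values measure only the spread between these libraries. The label of sponge replicate 2 notes that a raw read file was unavailable.

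The Rab genes named are those called, the 12 highest and 3 lowest by mean, and per comparison the 5 highest and 5 lowest fold changes among genes with a mean FPKM of at least 1 whose groups did not overlap. Named transcripts are the 4 of smallest p per comparison, and named pathway genes the 2 of smallest p per list and comparison. Others are examples chosen after their values were seen. Members and lists were chosen with earlier results of these data known. Alternatives were another pseudocount, other filters, median centring, quantile normalization, no trend, 1 fit of 8 libraries, a replicate block and leaving out each library.

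Same-numbered male libraries showed no shared deviation from their group means. The correlation of deviations between knockout replicate 1 and wild type male replicate 1 was 0.0012 over 13155 genes. This value cannot show whether the libraries were paired in the design.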

Additional observations from a re-analysis of the deposited data

How the results depend on the processing

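The counts of Rab genes and transcripts past the threshold with limma were 0 in the 3 comparisons and in the difference between manipulations, and were 0 under every alternative run but 1. The exception was the fit of all 4 female against all 4 male libraries, chosen after seeing the data, in which 1 Rab gene was called, Rab3c at -2.74 (adjusted p = 0.0345). In that fit Rab29 had a log2 fold change of -0.018 (adjusted p = 0.992), where the wild type comparison gave 0.49. The fit also takes in Rab29 at 1.35 and 0.558 in sponge females and at 1.35 and 2.24 in knockout males. Why Rab29 differed between groups was not tested. Leaving out 1 library at a time gave 0 to 0 Rab genes called in each comparison; the arm left with 1 library was assumed to vary like the other. At an unadjusted p under 0.05 the alternatives gave 3 to 9 Rab genes in the knockout, 1 to 6 in the sponge, 3 to 7 in the wild type comparison and 1 to 6 for the difference. With the replicate block, 0 Rab genes and 0 Rab transcripts were called in the knockout, and 0 of all genes, against 8 without it. The sponge and wild type comparisons share fewer than 2 replicate numbers, so no block could be fitted there. Over all genes, the knockout count of 8 was 2 with a pseudocount of 0.1 and 0 with quantile normalization, the sponge count of 14 was 2 in the fit of 8 libraries, and the wild type count of 9 was 3 there. Each of these 3 counts was 0 when any 1 library was left out. In the wild type comparison the fit of 4 against 4 libraries called 4 genes. The difference between manipulations called 2 genes, 4 with a pseudocount of 0.1 and 0 to 7 without 1 library. The fit of 8 libraries called 6 transcripts in the knockout, 1 in the sponge and 5 in the wild type comparison, against 2, 0 and 0. With 2 libraries a group and unknown depth, a p above the threshold does not show that values were alike.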
